A study of Homo sapiens with 3 samples.

Results

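Gene expression in the library of cells given GSK484 was compared with that in the library of untreated cells (NT), over all 13209 genes that reached a level of 1 CPM, a count scaled to library size, in either library, of 56632 gene IDs. Both libraries came from MCF10Ca1h, a tumour-forming line of the MCF10 human breast epithelial series. The NT cells were labelled as untreated, with no time given. The GSK484 cells were exposed to the PADI4 inhibitor GSK484 for 72 h. The remaining library, of the same line exposed to a control compound for 72 h (CON), was used for the scaling factors, and its values are printed beside the others. Folds of GSK484 and of CON over NT share the NT library, so they rest on the same untreated counts. All 3 cultures were grown in DMEM/F12 medium with horse serum, no dose is given in the labels, and all values refer to 1 cell line. Each group had 1 library, so there was no replicate error and no test between conditions. Intervals in square brackets are 95% exact conditional binomial intervals of the log2 fold, and they cover counting error only.

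PADI4 is a calcium-dependent enzyme that converts arginine into citrulline within proteins, histones among them. Citrulline carries no positive charge, so the change weakens contacts of histone tails with DNA, and it also removes arginines that methyltransferases such as CARM1 can modify. In neutrophils PADI4 is known for the chromatin release that forms extracellular traps. The title of the study places the inhibitor in the question of what PADI4 does in breast cancer stem cells.

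The libraries held total expected counts of 70555229 in NT, 77220120 in GSK484 and 92980847 in CON, and 12989 to 13026 genes reached 1 CPM in each library. The upper limit that a count of 0 sets, 3 counts, corresponded to 0.042 CPM in NT and 0.039 in GSK484. The libraries carried the markers of basal mammary epithelial cells: KRT5, a basal keratin gene, was at 1287 CPM in NT, 1453 in GSK484 and 1212 in CON, and TP63, the master transcription factor gene of basal epithelium, was at 34.2, 34.7 and 31.5. KRT14, the usual keratin partner of KRT5, was low, at 10.2, 9.58 and 11.9 CPM. The progesterone receptor gene PGR and the cell cycle inhibitor gene CDKN2A, which MCF10 lines have lost, had 0 counts in all 3 libraries, and the oestrogen receptor gene ESR1 was at 1.51, 1.64 and 1.30 CPM. Genes of the luminal mammary list were expressed as well, with 17 of 20 measured. Their sum was 15639 CPM in NT, 16243 in GSK484 and 16359 in CON. The basal mammary list had 20 of 20 measured and sums of 14673, 15747 and 14872 CPM. Of the markers of other cell types, 4 of 16 leukocyte, 2 of 10 fibroblast, 0 of 7 endothelial and 1 of 10 adipocyte and erythroid genes were measured. Of the 16 leukocyte genes, 6 were at 0 in all 3 libraries. The fibroblast sum was 18.1, 19.03 and 15.2 CPM. The part of these genes in the results below was not tested.

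The GSK484 library differed little from the untreated one. To be called higher or lower, a gene needed a fold of at least 2, an interval that excluded 0 and a larger CPM of at least 1. By this rule of size, 35 genes were higher (0.265% of those measured) and 37 were lower (0.28%). A fold of 1.5 in place of 2 gave 182 higher and 216 lower genes. The median log2 fold of all measured genes was -0.00, and the median absolute log2 fold was 0.13. It fell by level, from 0.20 over 4039 genes of 1 to 10 CPM to 0.12 over 5165 genes of 10 to 50 CPM and 0.09 over 4005 genes above 50 CPM. Counting error alone was exceeded much more often. The interval lay above 0 for 3609 genes (27.3%) and below 0 for 3897 (29.5%), and these genes are called higher or lower beyond counting error from here on. That share was 36.8% of the genes of 1 to 10 CPM and 75.5% of those above 50 CPM, so at this depth small folds of abundant genes pass it. No replicate library shows how far such folds vary between cultures.

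**Figure D1:**
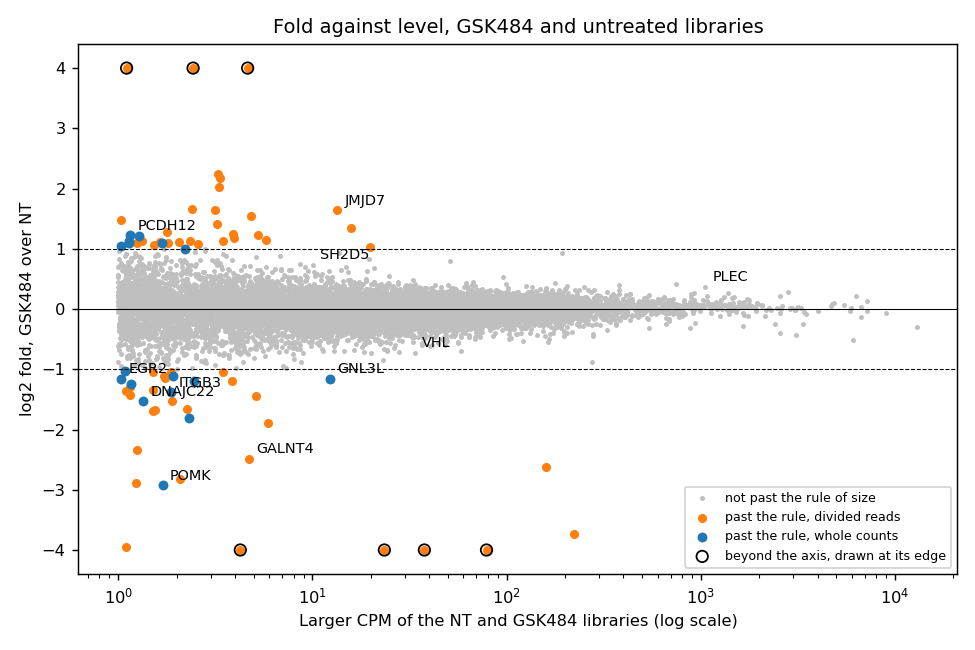
Each point is 1 of 13209 measured genes, with the larger CPM of the NT and GSK484 libraries on a log x axis and the log2 fold of GSK484 over NT on the y axis. Blue and orange points are the 72 genes past the rule of size, with whole and with divided counts, dashed lines mark a fold of 2, and circled points lie beyond the axis. Most genes lie near 0 and the spread narrows with level.

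Most of the 72 calls were of genes with divided reads. An expected count that is not a whole number means that reads fitted more than 1 gene and were divided between them by the estimate. Counts were whole in both libraries for 8269 of the measured genes and for 17 of the called ones, 7 higher and 10 lower. The other 55 called genes had divided counts, 28 higher and 27 lower, and 33 of these had no gene symbol. Only 24 of the 72 were protein-coding. Of the 9 called genes above 10 CPM, 1 had whole counts, GNL3L. The called gene with the smallest higher fold was LINC01311 at a log2 fold of 1.0002, and among the lower genes the smallest was -1.03. Just outside lay a gene without a symbol at 0.99985 and DHFRP1, a pseudogene at 2.0003 CPM in NT, at -0.99.

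Among the named lower genes with whole counts, POMK had the largest fold. In bulk RNA, fewer cells of a kind and less RNA per cell cannot be told apart, here and in all results that follow. POMK (ENSG00000185900), a kinase gene of the pathway that puts the laminin-binding sugar on dystroglycan, was at 1.70 CPM in NT, 0.22 in GSK484 and 0.34 in CON. GSK484 was thus 7.58-fold below NT (log2 fold -2.92 [-3.79 to -2.22]), on counts of 121 and 17, and the control compound's library was low as well. Of 12 measured genes of dystroglycan glycosylation, 2 were higher, 3 lower and 7 within counting error. ITGB3 (ENSG00000259207), the integrin beta 3 chain gene of the vitronectin receptor, was at 1.88 CPM in NT, 0.72 in GSK484 and 1.47 in CON. That was 2.60-fold below NT (log2 fold -1.38 [-1.86 to -0.93]), and GSK484 was the lowest of the 3 libraries. EGR2 (ENSG00000122877), a zinc finger transcription factor gene of the immediate early class, was at 1.04, 0.46 and 0.88 CPM (log2 fold -1.16 [-1.78 to -0.57]), the GSK484 value again the lowest. DNAJC22, a gene of the DNAJ co-chaperone family, was at 1.35 CPM in NT, 0.46 in GSK484 and 0.88 in CON (log2 fold -1.53 [-2.14 to -0.98]).

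GNL3L (ENSG00000130119), which codes for a nucleolar GTP-binding protein, was the most abundant called gene with whole counts. It was at 12.3 CPM in NT, 5.53 in GSK484 and 4.82 in CON (log2 fold -1.16 [-1.33 to -0.99]), so both compound libraries lay below NT. The same held for ANKRD36BP1, a pseudogene, at 2.30, 0.65 and 0.49 CPM (log2 fold -1.80), and for B3GALT9, at 1.92, 0.89 and 0.86 CPM (log2 fold -1.11). B3GALT9 overlaps FBXW2 on the opposite strand. Its whole counts mean that the estimate divided none of its reads, but the strand setting of the counting is not given. Whether reads from FBXW2 are among them therefore remains uncertain. ITPRID1 was at 2.47, 1.08 and 2.16 CPM (log2 fold -1.19 [-1.59 to -0.81]), lowest in GSK484, though its fold in the deposited TPM was smaller, at a log2 value of -0.46.

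The named higher genes with whole counts were a protocadherin gene, a pseudogene and noncoding genes. PCDH12, a protocadherin gene, was at 0.49 CPM in NT, 1.16 in GSK484 and 0.84 in CON (log2 fold 1.22 [0.66 to 1.84]). It overlaps RNF14 on the opposite strand, which makes its count uncertain, and its TPM fold was 0.65 on the log2 scale. The pseudogene TM9SF5P was at 0.52, 1.14 and 0.77 CPM (log2 fold 1.13), and its TPM fold, 0.60 on the log2 scale, was under 2-fold as well. The named set was completed by noncoding genes of the antisense type. AATBC was at 0.53, 1.14 and 1.26 CPM (log2 fold 1.09) and LINC01311 at 1.09, 2.20 and 1.49 (log2 fold 1.0002 [0.61 to 1.41]). As the strand setting of the counting is not given, both counts are uncertain. With the trend on GC content and length removed, described below, LINC01311 was at 0.83 and AATBC at 0.97. In TPM, LINC01311 was at 0.98 and AATBC at 0.96 on the log2 scale. Neither gene reached a fold of 2 by these measures.

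**Figure D2:**
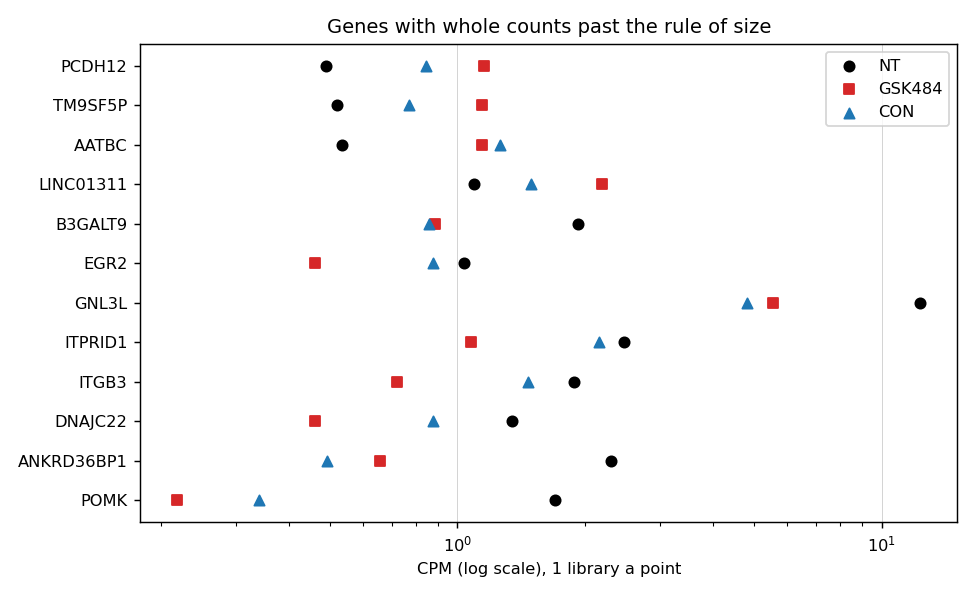
The 12 named genes with whole counts past the rule of size are rows, and the x axis is CPM on a log scale, with 1 point per library (NT, GSK484, CON). POMK, GNL3L, ANKRD36BP1 and B3GALT9 have both compound libraries below NT, while ITGB3, EGR2 and ITPRID1 have GSK484 apart from the other libraries.

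The larger folds belonged to divided counts, and for several of them an overlapping gene had the opposite fold. GALNT4, a gene of the enzymes that start mucin-type sugar chains, was at 4.70 CPM in NT, 0.84 in GSK484 and 1.73 in CON (log2 fold -2.48). The readthrough gene POC1B-GALNT4, which contains it, ran the other way, at 0.69, 3.26 and 1.94 CPM (log2 fold 2.24). Summed, the pair was at 5.39 CPM in NT and 4.10 in GSK484, a log2 fold of -0.39. JMJD7, a gene of the Jumonji hydroxylase family, was at 4.31, 13.4 and 14.3 CPM (log2 fold 1.64), while the readthrough gene JMJD7-PLA2G4B was at 33.7, 28.1 and 26.6. Their sum had a log2 fold of 0.13. GCOM1, part of a readthrough unit with MYZAP and POLR2M, was at 0.75, 2.39 and 6.92 CPM (log2 fold 1.66), and the sum over the unit was at -0.13.

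Antisense genes with divided counts also had large folds, though their partners did not always go the other way. PHLDA1-AS1, antisense to the apoptosis-related gene PHLDA1, was at 1.66 CPM in NT, 4.85 in GSK484 and 0.68 in CON (log2 fold 1.54), beside PHLDA1 itself at 395, 405 and 439. FEM1A, a substrate receptor gene of a ubiquitin ligase, was chosen after its values were seen, at 29.3, 51.0 and 51.6 CPM (log2 fold 0.80). Its antisense partner ENSG00000269604 was at 23.5 CPM in NT and 0.07 in GSK484, and the sum of both was at 52.8, 51.1 and 51.9 (log2 fold -0.05). ENSG00000258232, antisense to the tubulin gene TUBA1C, was at 37.7 CPM in NT with 0 counts in GSK484 and CON, at least 980-fold lower in GSK484 against a floor of 3 counts in that library. Added to TUBA1C, at 1530 and 1572 CPM, it left a log2 fold of 0.00. ASB16-AS1 was at 0.73, 3.33 and 2.003 CPM (log2 fold 2.18), and its sum with ASB16 still stood at 1.52, but its deposited TPM gave a log2 fold of 0.70.

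Of the 55 called genes with divided counts, 32 overlapped another gene, 14 of them with the leading partner on the opposite strand. Their median absolute log2 fold was 1.35 alone and 0.14 when the overlapping genes were added. The rule of size sets a lower bound on the first value. Where a partner is far more abundant, as PHLDA1 is, the sum stays near the partner's fold whatever the called gene does. Such sums do not show whether reads passed between genes, which was not tested. In 3 of the 32 the sum kept a fold of at least 2, for ASB16-AS1 and 2 genes without a symbol. One, whose leading overlapping gene is AGAP11, was at 78.8 CPM in NT and 0.31 in GSK484, with sums of 79.3 in NT, 0.94 in GSK484 and 0.91 in CON (log2 fold -6.38 [-6.73 to -6.05]). The other, which overlaps CICP7, had sums of 2.59, 5.78 and 2.91 CPM (log2 fold 1.15 [0.90 to 1.41]). CICP7 was at 0 CPM in all 3 libraries, so this sum is the called gene's own value in NT and GSK484. AGAP11 was at only 0.48 CPM in NT and 0.64 in GSK484. With partners this low, a kept fold says nothing about whether reads passed between genes. Among the rest of the named set, SEPTIN7P13, a pseudogene, was at 2.08, 0.29 and 0.26 CPM (log2 fold -2.83, or -1.58 in TPM), and the protocadherin genes PCDHAC1 (-1.68), PCDHA7 (-1.53, or -0.68 in TPM) and PCDHGA5 (-1.15) share their last exons with other members of their clusters. The pseudogenes SMG1P4 (-1.29, or -2.25 in TPM) and PVRIG2P (1.65) also belong here, together with FUT5 (-1.34), CCDC144A (-1.05), SLX1A-SULT1A3 (1.35) and UGT1A3 (1.13). UGT1A3, a glucuronosyltransferase gene, shares exons with UGT1A6 and others, and the sum over that cluster was at -0.14.

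**Figure D3:**
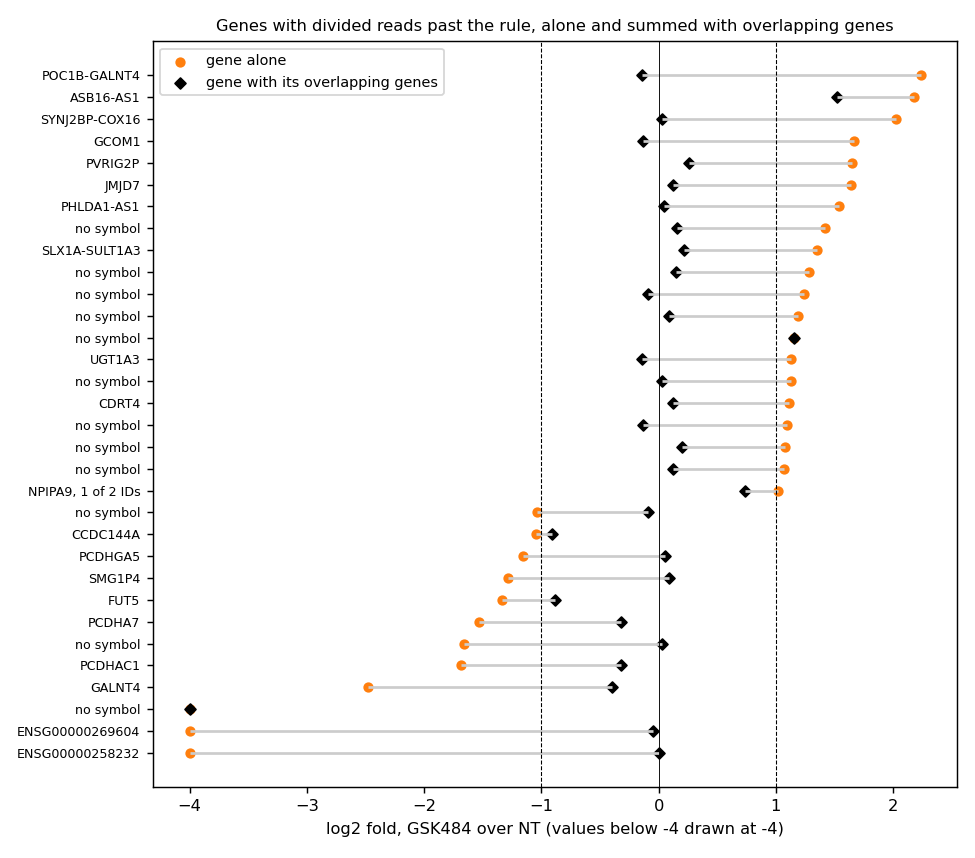
The 32 called genes with divided counts that overlap another gene are rows, with the log2 fold of GSK484 over NT on the x axis, alone (orange circles) and summed with the overlapping genes (black diamonds). Dashed lines mark a fold of 2. All but 3 of the sums lie between the dashed lines, with a median absolute log2 fold of 0.14 against 1.35 alone. A sum with a far more abundant partner lies near that partner's fold whatever the called gene does.

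Gene types differed in where their folds lay. The 265 measured processed pseudogenes, which are copies of messenger RNAs put back into the genome, had a median log2 fold of 0.24, or 0.17 with the trend described below removed, with 120 higher and 20 lower beyond counting error. Only 4.91% of them had whole counts in both libraries. Antisense genes had a median of 0.11, or 0.06 with that trend removed, with 101 higher and 42 lower of 321, and 4.67% of them passed the rule of size. Long intergenic noncoding genes had a median of 0.13, with 49 higher and 18 lower of 174. The 11731 protein-coding genes had a median of -0.01, with 3131 higher, 3682 lower and 24 past the rule. In CON the medians against NT were 0.14 for processed pseudogenes, 0.19 for antisense genes and 0.16 for the intergenic class.

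The folds also followed base composition and length. Protein-coding genes of at least 10 CPM were split into 6 equal groups by the GC content of their longest transcript, from 31.3% to 73.9%. Median log2 folds of GSK484 over NT were -0.17, -0.10, -0.03, 0.02, 0.07 and 0.12 from the lowest to the highest group. In the lowest group 1084 of 1468 genes were lower and 58 higher beyond counting error, and in the highest 69 of 1467 were lower and 1027 higher. By effective length the medians ran from 0.06 for the shortest genes to -0.12 for the longest. For CON over NT they ran from -0.36 to 0.14 by GC content and from 0.17 to -0.15 by length. A smooth trend on both properties, fitted to 8803 protein-coding genes, was removed as an alternative. Beside the fold of a single gene of at least 0.1 on the log2 scale, the value with the trend removed or in the deposited TPM is given where it differs by over 1.5 times, and list medians with the trend removed likewise. Libraries also differed in fragment length, with a median over genes of 187.7 bases between length and effective length in NT, 177.3 in GSK484 and 180.7 in CON. The part of these properties in the gene results was not tested.

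**Figure D4:**
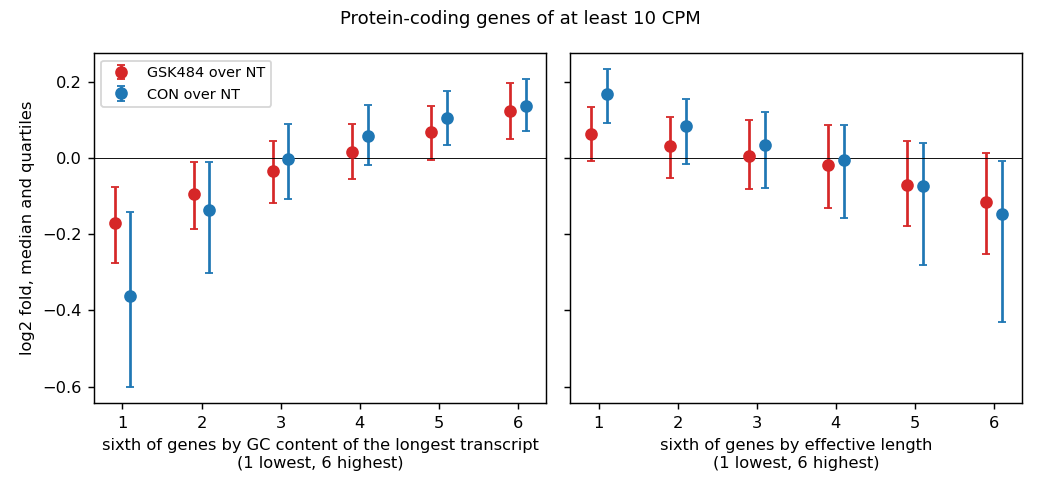
Protein-coding genes of at least 10 CPM are split into 6 groups by GC content (left) and by effective length (right), and the y axis is the log2 fold over NT. Points are medians and bars run from the lower to the upper quartile, for GSK484 (red) and CON (blue). The GSK484 medians climb from -0.17 to 0.12 with GC content and go from 0.06 to -0.12 with length.

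Among genes of at least 10 CPM with whole counts, the ones farthest above NT were modest in size. Of 5890 such genes, 1 was at least 1.5-fold higher and 20 were at least 1.5-fold lower. SH2D5, an SH2 domain adaptor gene, was at 6.05 CPM in NT, 10.1 in GSK484 and 7.56 in CON (log2 fold 0.74 [0.57 to 0.91]). PLEC, which codes for the plakin that ties intermediate filaments to hemidesmosomes, was at 817, 1057 and 897 CPM (log2 fold 0.37 [0.36 to 0.39]), highest in GSK484. TAPBP, the tapasin gene of peptide loading on MHC class I, was at 74.7, 99.8 and 94.5 CPM (log2 fold 0.42). ANPEP, a surface aminopeptidase gene, was at 13.7, 18.8 and 15.3 (log2 fold 0.46), and NFIC, a transcription factor gene of the nuclear factor I family, was at 96.1, 125 and 105 (log2 fold 0.38).

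Further higher genes were TRIM3, a ubiquitin ligase gene (0.54), PLCH2, a phospholipase C gene (0.50), MIDN (0.40), GIGYF1 (0.42) and MAP7D1 (0.38, or 0.20 with the trend removed). TNNI2, the fast skeletal muscle troponin I gene, was at 48.9, 66.8 and 71.2 CPM (log2 fold 0.45), and CITED4, a transcriptional coactivator gene, at 46.2, 62.2 and 64.5 (log2 fold 0.43). For both, CON was as high as GSK484 or higher. With the GC and length trend removed, CITED4 was at 0.11 and TNNI2 at 0.27.

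The lower genes of this class were led, by their interval bounds, by GNL3L, described above, and VHL. VHL, the ubiquitin ligase subunit gene that marks hypoxia-inducible factors for destruction, was at 33.6 CPM in NT, 20.3 in GSK484 and 19.2 in CON (log2 fold -0.72 [-0.82 to -0.63]), and its value was -0.71 with the trend removed. IL17RD, a feedback inhibitor gene of FGF signalling, was at 24.3, 15.2 and 17.2 CPM (log2 fold -0.68). ATM, the kinase gene of the DNA double-strand break response, was at 20.03, 12.1 and 8.85 (log2 fold -0.73, or -0.54 with the trend removed). RIF1, a DNA repair and replication timing gene, was at 41.3, 27.2 and 16.5 (log2 fold -0.60, or -0.36 with the trend removed). In KIF14, a mitotic kinesin gene, the values were 26.3, 16.8 and 9.13 CPM (log2 fold -0.64, or -0.42). BDP1, AKAP9, CASP8AP2, ZMYM1 and USP53 had log2 folds between -0.71 and -0.66, and between -0.52 and -0.43 with the trend removed. In all of these except IL17RD, CON lay below GSK484, which itself lay below NT.

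For PADI genes, which include the gene of the enzyme that GSK484 inhibits, the read counts of NT and GSK484 differed by no more than counting error. PADI4 (ENSG00000159339) was below the CPM minimum, at 0.66 CPM in NT, 0.60 in GSK484 and 0.68 in CON, so no difference could be detected at its depth (log2 fold -0.13 [-0.74 to 0.49], or -0.22 with the trend removed). The deposited TPM of PADI4 had the opposite direction, at 0.37 in NT, 0.70 in GSK484 and 0.51 in CON (log2 fold 0.90). PADI3 was at 133.8, 131.0 and 149.3 CPM (log2 fold -0.03), PADI2 at 65.0, 64.1 and 80.0 (-0.02) and PADI1 at 10.9, 11.1 and 12.8 (0.03), all within counting error. In these 3 genes CON stood above both other libraries. RNA levels do not measure the activity of the enzyme. Of 12 measured genes of the PADI family and of partners of histone citrullination, 1 was higher and 5 were lower beyond counting error, against 27.3% and 29.5% of all genes. The higher one was CARM1, an arginine methyltransferase gene, at 67.8, 78.3 and 72.6 CPM (0.21, or 0.10 with the trend removed). Among the lower ones, ELK1, an ETS transcription factor gene, had -0.19, or -0.09 in TPM, and HDAC1, a histone deacetylase gene, -0.09.

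Gene lists of pathways and cell states are read against all measured genes. Of these, 27.3% were higher and 29.5% lower beyond counting error, and their median was -0.00. A list near these shares is no result about its members. The shares rise with level. Above 50 CPM, 1680 of 4005 genes were higher and 1344 lower, against 716 and 770 of 4039 genes of 1 to 10 CPM. For lists of abundant genes, the shares over all genes are therefore too low a measure. Of 41 lists with at least 3 measured members, 31 had a median log2 fold between -0.1 and 0.1, 9 lay below and 1 above. Over all lists, 3 members passed the rule of size, ITGB3, POMK and EGR2.

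**Figure D5:**
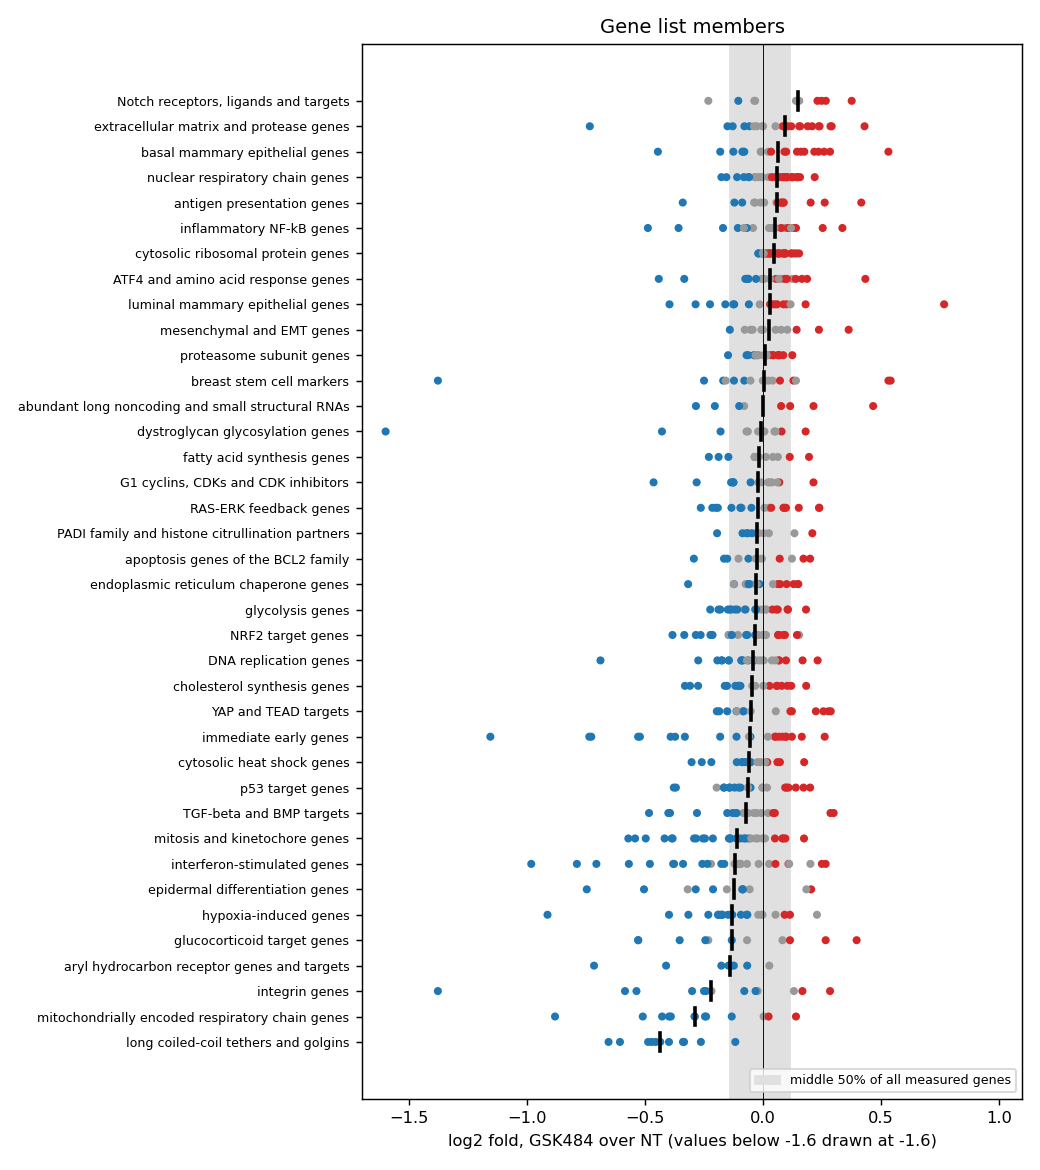
Rows are gene lists, and each point is 1 measured member with its log2 fold of GSK484 over NT on the x axis. Red and blue points are higher and lower beyond counting error, grey points are within it, black bars are list medians, and the grey band holds the middle 50% of all measured genes. List medians run from -0.44 for golgins and tethers to 0.15 for the Notch list.

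The genes of the mitochondrial genome, which code for core subunits of the respiratory chain, were lower in GSK484. Of all 13, 10 were lower, 2 higher and 1 within counting error, and the median log2 fold was -0.29. Their summed level was 46340 CPM in NT, 38941 in GSK484 and 53155 in CON, so GSK484 lay below NT and CON above it. As a share of all counts that was 4.68%, 3.93% and 5.22%. MT-ND4, a complex I subunit gene, was at 6060 CPM in NT, 4256 in GSK484 and 6722 in CON (log2 fold -0.51 [-0.52 to -0.50], divided counts). MT-CYB, the complex III cytochrome b gene with whole counts, was at 2554, 1937 and 2896 CPM (log2 fold -0.40), and MT-ND2 at 3106, 2309 and 3592 (-0.43, divided counts). In each of the 3 the order was CON, NT, GSK484 from high to low.

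Not all mitochondrial genes followed. MT-ND3, another complex I gene, was at 603.6, 604.7 and 780.9 CPM (log2 fold 0.00), MT-CO3, a complex IV gene, at 5859, 5957 and 6828 (0.02), and MT-ND6, the one messenger of the light strand, at 504.4, 555.7 and 750.7 (0.14, or 0.09 in TPM). Against CON, the same 3 genes were also lower in GSK484. MT-ND4L, a short gene chosen after its values were seen, had the largest fold, at 277, 150.3 and 256 CPM (-0.88). Removing the GC and length trend left the median at -0.30. The 33 measured respiratory chain genes of the nucleus had a median of 0.06, with 20 higher and 6 lower, or -0.02 with the trend removed.

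Hypoxia-induced genes, which the HIF transcription factors switch on through DNA sites with the core ACGTG, leaned lower. Of 22 measured, 15 were lower, 2 higher and 5 within counting error, with a median of -0.13, or -0.07 with the trend removed and 0.06 for CON over NT. RefSeq promoter windows (GRCh38.p14, 250 bases before to 50 after the gene start) were at hand for 13 of the list. The core was found on either strand in 8 of these 13, and in 1951 of 6995 promoters of measured genes (27.9%). The letters also occur inside the E-box CACGTG, which was counted too. Lower members whose windows held no match were EGLN3 (-0.19, or -0.41 in TPM), P4HA2 (-0.17), ADM (-0.15, or -0.26 with the trend removed and -0.31 in TPM) and SLC2A1 (-0.13). The windows of 3 lower members, chosen because each holds 1 match and shown to place the letters beside genes of this list, are given 5′ to 3′ on the gene's strand, with the match, or its reverse complement CACGT, in capitals. They lie at chr9:35673678-35673977 on the plus strand, chr1:231422238-231422537 on the minus strand and chr10:73096817-73097116 on the minus strand.
CA9: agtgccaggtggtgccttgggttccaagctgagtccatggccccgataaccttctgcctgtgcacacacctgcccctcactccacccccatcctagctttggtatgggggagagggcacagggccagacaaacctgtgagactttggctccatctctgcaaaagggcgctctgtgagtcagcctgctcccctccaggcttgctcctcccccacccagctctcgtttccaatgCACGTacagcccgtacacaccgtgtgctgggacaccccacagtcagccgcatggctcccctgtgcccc
EGLN1: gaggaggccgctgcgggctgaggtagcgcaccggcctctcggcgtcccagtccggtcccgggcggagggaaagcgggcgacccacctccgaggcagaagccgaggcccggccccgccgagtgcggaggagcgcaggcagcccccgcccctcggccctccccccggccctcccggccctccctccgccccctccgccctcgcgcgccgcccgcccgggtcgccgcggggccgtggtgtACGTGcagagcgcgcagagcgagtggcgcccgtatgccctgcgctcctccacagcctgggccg
P4HA1: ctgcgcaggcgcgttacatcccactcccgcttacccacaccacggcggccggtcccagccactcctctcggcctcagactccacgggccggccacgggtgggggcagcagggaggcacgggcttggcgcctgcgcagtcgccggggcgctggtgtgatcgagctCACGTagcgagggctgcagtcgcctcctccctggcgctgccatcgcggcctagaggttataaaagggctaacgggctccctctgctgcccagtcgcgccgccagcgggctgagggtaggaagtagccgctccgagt

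CA9, the carbonic anhydrase gene much used as a hypoxia marker, was at 12.3 CPM in NT, 9.37 in GSK484 and 14.0 in CON (log2 fold -0.40 [-0.54 to -0.25]), with divided counts. EGLN1, the main oxygen-sensing prolyl hydroxylase gene, was at 55.9, 49.6 and 54.1 CPM (-0.17, or -0.07 with the trend removed and -0.03 in TPM), and P4HA1, a collagen prolyl hydroxylase gene, at 91.9, 83.9 and 79.7 (-0.13, or -0.01 with the trend removed). NDUFA4L2, a hypoxia-induced mitochondrial gene, was at 1.80, 0.95 and 2.17 CPM (-0.91 [-1.35 to -0.49]), the largest fold of the list. BNIP3L, a mitophagy receptor gene, was at 28.3, 22.7 and 21.8 (-0.32, or -0.18 with the trend removed and -0.08 in TPM). VEGFA, the angiogenic growth factor gene and a classical HIF target, was within counting error at 75.7, 75.4 and 78.3 CPM. CA9 and NDUFA4L2 were lowest in GSK484, while BNIP3L and P4HA1 were lowest in CON. A promoter match is a description of the letters, and binding was not measured.

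Growth factor and stress response genes of the immediate early class lay on both sides of 0. Of 22 measured, 11 were lower, 9 higher and 2 within counting error, with a median of -0.06, or -0.10 with the trend removed. The lower side held EGR2, described above, and NR4A2, a nuclear receptor gene, at 1.46, 0.87 and 1.28 CPM (-0.74 [-1.20 to -0.29]). It also held ATF3, a stress-induced transcription factor gene, at 8.94, 5.39 and 8.25 CPM (-0.73 [-0.91 to -0.55]). DUSP1, the phosphatase gene that turns off MAP kinases, was at 22.2, 15.4 and 21.5 (-0.53), FOS at 204, 156 and 200 (-0.39 [-0.43 to -0.36]) and FOSB at 176, 140 and 173 (-0.33). In these 5 genes, GSK484 was lowest and CON lay between it and NT, nearer to NT. EGR3 was at 4.98, 3.47 and 3.76 CPM (-0.52), low in both compound libraries.

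On the other side of the same class, FOSL1, the Fra-1 gene of the AP-1 complex, was at 173 CPM in NT and 208 in both GSK484 and CON (0.26, or 0.13 with the trend removed). EGR1 was within counting error at 230, 233 and 246 CPM (0.02), and JUN was at 49.3, 52.8 and 50.4 (0.10). MYC was at 192, 203 and 220 CPM (0.08). EGR3, FOS, FOSB, FOSL1, EGR1 and JUN were chosen after their values were seen.

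Interferon-stimulated genes, an antiviral set, had 13 lower, 4 higher and 10 within counting error of 27 measured, with a median of -0.12, or -0.07 with the trend removed. IFIT2, which binds viral RNA, was at 4.04, 2.04 and 4.10 CPM (-0.98 [-1.27 to -0.70]), with NT and CON close together. IFIT1 was at 1.14, 0.66 and 0.78 (-0.79), and SAMD9, an antiviral restriction factor gene, at 27.8, 17.1 and 11.2 (-0.71, or -0.46 with the trend removed). On the higher side stood ISG20 (0.27, or 0.15 with the trend removed) and IRF7 (0.25, or 0.05), each higher still in CON.

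Among genes of the aryl hydrocarbon receptor, the ligand-activated factor that induces drug-metabolising enzymes, 7 were lower, 0 higher and 1 within counting error of 8 measured (median -0.14). CYP1B1, an oestrogen- and xenobiotic-oxidising cytochrome gene, was at 4.10, 2.49 and 3.66 CPM (-0.72 [-0.99 to -0.45]). The receptor gene AHR itself was at 16.2, 12.2 and 11.6 (-0.41, or -0.19 with the trend removed), and UGT1A6 at 78.2, 69.2 and 83.6 (-0.18), both with divided counts. Of the 8 measured genes of this list, 4 had whole counts. CYP1A1, the best known target, was under 1 CPM in all libraries, at 0.80, 0.40 and 0.76 CPM. Promoter windows were at hand for 3 genes of this list, and the core GCGTG of the receptor's site was found on either strand in 2 of them, beside 52.6% of the promoters of measured genes.

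Genes of epidermal differentiation, the maturation of squamous cells, had 6 lower, 1 higher and 5 within counting error of 12 measured. Their median was -0.12, or -0.30 with the trend removed, and 0.32 for CON over NT. KRT13, a keratin gene of moist squamous epithelium, was at 4.26, 3.004 and 5.63 CPM (-0.50 [-0.76 to -0.25], or -0.95 in TPM) and its partner KRT4 at 3.79, 3.11 and 4.66 (-0.29, or -0.44 in TPM). SPRR2D, a cornified envelope gene with divided counts, was at 1.03, 0.61 and 0.90 (-0.75). All 3 were lowest in GSK484, and KRT13 and KRT4 were highest in CON.

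Integrin genes, whose products tie cells to the matrix, had 8 lower, 2 higher and 3 within counting error of 13 measured, with a median of -0.22, or -0.07 with the trend removed. Beside ITGB3, ITGB8 was at 7.996, 5.33 and 4.78 CPM (-0.59) and ITGA2, the collagen-binding alpha 2 chain gene, at 122, 84.1 and 67.6 (-0.54, or -0.34 with the trend removed). Both were lower still in CON. ITGB4, the hemidesmosome integrin gene, was the exception in the other direction, at 2302, 2803 and 2488 CPM (0.28 [0.28 to 0.29], or 0.15 with the trend removed), and ITGA3, a laminin receptor gene, was at 1547, 1737 and 1521 (0.17, or 0.09 with the trend removed).

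Basal mammary genes had 11 higher, 5 lower and 4 within counting error of 20 measured, with a median of 0.06. SNAI2, a zinc finger transcription factor gene of mammary basal and stem cells, was at 6.48 CPM in NT, 9.37 in GSK484 and 7.0045 in CON (0.53 [0.36 to 0.70]). LAMB3, a laminin 332 chain gene, was at 772, 924 and 784 (0.26), and KRT6B, a stress keratin gene with divided counts, at 925, 1084 and 865. In these 3 genes and in ITGB4, GSK484 was above both other libraries. DST, which codes for another hemidesmosome plakin, went the other way, at 280, 205 and 118 CPM (-0.45, or -0.28 with the trend removed).

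Matrix and protease genes had 12 higher, 5 lower and 5 within counting error of 22 measured (median 0.09, or 0.06 with the trend removed). PLAU, the urokinase gene, was at 132, 178 and 142 CPM (0.43, divided counts), COL7A1, the anchoring fibril collagen gene, at 92.8, 113 and 93.5 (0.29, or 0.15 with the trend removed), and MMP14, a membrane protease gene, at 143, 168 and 149 (0.24). LOXL4, a lysyl oxidase gene, was lower, at 3.51, 2.11 and 4.47 CPM (-0.73 [-1.03 to -0.45]). TIMP2, a protease inhibitor gene, had 0.29 with divided counts. COL7A1, LAMB3 and MMP14 were chosen after their values were seen.

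Breast stem cell markers, the list nearest to the title of the study, had 4 higher, 5 lower and 7 within counting error of 16 measured, with a median of 0.00, close to the shares over all genes. BCL11A, a transcription factor gene of mammary stem and basal-like tumour cells, was at 3.70, 5.39 and 4.07 CPM (0.54 [0.32 to 0.77]). CD44, a hyaluronan receptor gene and common sorting marker of such cells, was at 842, 921 and 828 (0.13 [0.11 to 0.15]). ITGB3, which also belongs to this list, was its lowest member. Of 12 pluripotency factors, 4 were measured, 1 higher, 1 lower and 2 within counting error. Luminal genes had 8 higher, 7 lower and 2 within counting error of 17, with KRT19, a luminal keratin gene, at 3.13, 2.38 and 3.23 CPM (-0.40). MUC1, a mucin gene, was at 0.84, 1.44 and 1.096 CPM (0.77, or 0.48 with the trend removed), but its deposited TPM gave -0.12.

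Mitosis and kinetochore genes had 20 lower, 5 higher and 5 within counting error of 30, with a median of -0.11, or -0.05 with the trend removed. KNL1, a kinetochore scaffold gene, was at 36.5, 24.6 and 14.7 CPM (-0.57), CENPF at 164, 112 and 69.8 (-0.54) and ECT2, a cytokinesis gene, at 103, 73.0 and 48.3 (-0.50). These were between -0.41 and -0.31 with the trend removed, and lowest in CON. The list of long coiled-coil tethers and golgins, proteins that capture vesicles, had 11 of 11 lower, with a median of -0.44, or -0.25 with the trend removed, and -1.15 for CON over NT. EEA1, an endosome tether gene, was at 7.97, 5.06 and 2.54 CPM (-0.65, or -0.37 with the trend removed). DNA replication genes had 13 lower and 5 higher of 25 (median -0.04, or -0.03 with the trend removed), with CCNE2, a cyclin E gene with divided counts, at 12.9, 8.0001 and 7.36 (-0.69).

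Notch genes were the one list with a median above 0.1, at 0.15, with 5 higher, 1 lower and 5 within counting error of 11, and 0.04 with the trend removed. NOTCH1 was at 151, 179 and 162 CPM (0.25), and the target genes HES4 and HES2 were at 0.38 and 0.27. HES4 was at 0.04 with the trend removed. Glucocorticoid targets had 3 higher, 5 lower and 3 within counting error of 11, with a median of -0.13, or -0.04 with the trend removed. MT2A, a metallothionein gene that metals and glucocorticoids induce, was at 288, 379 and 293 CPM (0.40 [0.37 to 0.42], divided counts), and KLF9, a glucocorticoid-induced transcription factor gene, was at 1.26, 0.87 and 0.84 (-0.53). TGF-beta and BMP targets had 4 higher, 8 lower and 7 within counting error of 19, with ID2 at 2.95, 2.11 and 3.38 CPM (-0.48, or -0.09 in TPM) and IGFBP3 at 132, 100 and 145 (-0.39), both lowest in GSK484.

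Other lists stayed near 0. Cytosolic ribosomal protein genes had 26 higher and 2 lower of 35, with a median of 0.05, or -0.05 with the trend removed. NRF2 targets had 6 higher and 11 lower of 25 (median -0.03, or -0.07 with the trend removed), with TXNRD1, the thioredoxin reductase gene, at 197, 151 and 175 CPM (-0.38) and SLC7A11, the cystine transporter gene, at 41.0, 32.5 and 21.1 (-0.33, or -0.06 with the trend removed). Glycolysis genes had 6 higher and 11 lower of 22 (-0.03, or -0.09 with the trend removed), p53 targets 6 and 10 of 22 (-0.06), and cytosolic heat shock genes 4 and 9 of 16 (-0.06, or -0.04 with the trend removed). Among the ATF4 response genes, 7 were higher and 7 lower of 21, with DDIT3, the CHOP gene, at 4.47, 6.04 and 6.97 CPM (0.43, divided counts) and VLDLR at 5.44, 4.01 and 5.26 (-0.44). Inflammatory NF-kB genes had 7 higher and 5 lower of 20 (0.05), near the shares over all genes, with CXCL3, a chemokine gene, at 3.07, 3.88 and 3.15 (0.34, or 0.14 in TPM, divided counts) and BIRC3, an inhibitor of apoptosis gene, at 11.7, 8.32 and 7.0045 (-0.49, or -0.25 with the trend removed).

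A few genes differed more in their estimated transcript length than in their share of reads. The deposited length of a gene is weighted over its isoforms, and TPM divides by it. Of 8843 genes of at least 10 CPM in both libraries, 8 differed by over 1.5-fold in this length, 5 shorter and 3 longer in GSK484, beside a median absolute log2 ratio of 0.02. RC3H2, an RNA-binding ubiquitin ligase gene, had a weighted length of 5190 bases in NT, 1791 in GSK484 and 1931 in CON. Its CPM fold was -0.15 on the log2 scale and its TPM fold 1.44. EXOC2, an exocyst subunit gene, had 1611, 3135 and 4244 bases, a CPM fold of -0.22 and a TPM fold of -1.26. KMT2C, a histone H3 lysine 4 methyltransferase gene, had 5825, 3389 and 3129 bases and GINS4, a replication helicase gene, 2049, 3353 and 3252. In all 4 the CON length lay nearer to GSK484 than to NT, and no error is available for these lengths. All 4 genes were chosen after their values were seen.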

How the data were processed

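RNA was taken up in TRIzol and sequenced as stranded total RNA with paired reads, per the labels' protocols. The authors deposited 1 gene table per library. Per the file headers, the table holds expected counts, which are unnormalized estimates of each gene's reads and can be fractional. The authors also deposited TPM, abundances corrected for effective length with an equal total per library, and gene lengths, which average over isoforms. RSEM and the hg19 build are named in the submitters' processing notes, while for versions, aligner, annotation release and strand setting nothing is given in the sources used here. The labels' treatment text and the control library's table give different names for the control compound, so it is called CON.

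Expected counts were scaled to CPM with TMM factors over 3 libraries (edgeR 4.0.16, R 4.3.3), at 1.01 for NT, 1.01 for GSK484 and 0.98 for CON. For log2 folds, 0.5 was added as a prior count in proportion to library size. Intervals at 95% were exact and binomial (Clopper-Pearson), conditional on the summed rounded counts of both libraries, and PCR copies count in them as molecules. An expected count was called whole within 0.005 of a whole number. With 1 library per group no p-value was computed. The scripts were tested on simulated data.

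The gene lists (45 lists, 839 entries, of which 827 matched a symbol) and the naming rule were chosen with earlier results of these data known. Genes were eligible for naming if they had a symbol and at least 200 bases of effective length in both libraries. Named were all whole-count genes past the rule of size, 8 higher and 8 lower divided-count genes past it, and the 12 higher and 12 lower whole-count genes of at least 10 CPM ranked by interval bound. Up to 3 members of each list with the largest fold beyond counting error, the PADI genes, ITGB3, POMK, EGR2 and CD44 completed the set. Other genes named with values were chosen after their values were seen. Some genes that the rule names are not reported here. Symbols were found for 39364 of 56632 IDs and 12531 of 13209 measured genes. IDs without a symbol held 1.04% of counts in NT and 1.02% in GSK484. GENCODE 29, on another build than the tables, served for names, gene types, overlaps and GC content, known for 97.2% of measured genes. RefSeq promoter sequences carry their own build. Alternatives were total scaling, DESeq2 1.42.0 size factors, TMM of NT and GSK484 alone, the deposited TPM with a pseudocount of 0.01, a prior count of 2, CPM minimums of 5 and none, a fold of 1.5, whole counts only, effective length of at least 200 and removal of a spline trend on GC content and length.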

Additional observations from a re-analysis of the deposited data

How the results depend on the processing

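Counts by the rule of size, 35 higher and 37 lower, were within 1.5 times of these under total scaling, DESeq2 size factors (34 and 38 with both), TMM of NT and GSK484 alone, a prior count of 2 and an effective length of at least 200. They were 166 higher and 203 lower with the deposited TPM, which has no counting interval, 182 and 216 with a fold of 1.5, and 485 and 569 with no CPM minimum. Fewer genes were called with a CPM minimum of 5, at 5 higher and 8 lower, and with whole counts only, at 7 and 10. Removing the GC and length trend left 21 higher and 27 lower, but 8 of the 35 and 13 of the 37 had no GC content and could not be called then, so 27 and 24 are the counts to set beside these. Genes higher beyond counting error numbered 1998 with whole counts only, where fewer genes were compared. Signs were compared for named genes beyond counting error and for lists whose median exceeded the median half-width of their members' intervals. With the trend removed, the median turned negative for nuclear respiratory chain genes (-0.0181), cytosolic ribosomal protein genes (-0.0494) and antigen presentation genes (-0.0568), as did RPS15 (-0.041), RPS28 (-0.0402) and BBC3 (-0.0758). Some lists within that half-width also changed sign, among them the luminal list, from 0.03 to -0.08, and the YAP and TEAD list, from -0.05 to 0.01. MUC1 turned to -0.12 with the deposited TPM. The cause was not tested. Of 169 named genes, 77 more moved beyond their counting interval with the trend removed, 45 with TPM and 4 with DESeq2 size factors. No paired analysis was possible because each group has 1 library. Depth limits genes near 1 CPM, and without replicates no setting shows the spread between cultures.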
